A study of Mus musculus with 12 samples.

Results

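Retained intron transcripts are annotated transcripts of protein-coding genes that carry the retained_intron biotype because at least part of an intron of the gene lies inside one of their exons. The 115 transcripts described here were chosen by their measured read counts, as the retained intron transcripts with 100 or more reads summed over the 12 libraries of the series, so their summed counts are a description with no test. The fits between days given further on use the same reads. They were 115 of 4095 retained intron transcripts with reads (2.81%), among 34244 nuclear transcripts, and they came from 105 genes, 10 of which gave more than 1 member. They held 29013 reads, which was 41.6% of the reads on retained intron transcripts and 0.679% of the 4274320 reads kept. Reads per member ran from 102 to 1361 with a median of 156. Just inside the limit lay Larp7, Chchd2 and Mbtps1 with 102 reads, Eif3m with 103 and Sf3b1 with 104. Just outside it lay further transcripts of Rps20, Dgcr2, Dlg3 and Ppp2r5d with 97.

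The samples were P19 mouse embryonal carcinoma cells of WT genotype, a line that forms neuron-like cells with retinoic acid. Cells were collected before induction (D0) and 2, 4 and 6 days after induction (D2, D4 and D6) in NDiff 227 medium with 500 nM retinoic acid. Poly(A) RNA was read as native RNA on nanopores, so that each read named the transcript it aligned to and carried its whole poly(A) tail, whose length was estimated. There were 3 biological replicates per day. Between 120326 (D2 replicate 1) and 613756 (D0 replicate 2) reads were kept per library, and 37.0% of all kept reads came from D0, 12.8% from D2, 26.0% from D4 and 24.3% from D6. The summed level of the markers of undifferentiated cells was 2091 to 2375 RPM (reads scaled to a common library size with TMM factors) at D0 and 185 to 229 at D6, and that of the neuronal markers was 646 to 665 at D0 and 3155 to 3174 at D6. Markers of other cell types (11 genes, 7 of them at 0 in every library) summed to 18.7 to 21.7 RPM at D0 and at most 7.15 at D6. Each sequencing run held 1 day, so run and day cannot be told apart. The run names of the D0 libraries call the cells undifferentiated but carry the mark D2, and these libraries were grouped as D0 by the sample labels and by the condition that the deposited table gives for each read.

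An intron is marked at its 5′ end by the bases GT and at its 3′ end by AG, where the spliceosome cuts before the exons are joined. An RNA that keeps an intron after it has received its poly(A) tail is often held in the nucleus, where it can be spliced late or degraded. One that reaches the cytoplasm commonly meets a premature stop codon and the nonsense-mediated decay pathway. SR proteins and hnRNPs bind exons and introns and shift how often an intron is removed, and many of their own genes carry regulated introns.

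The introns that reads of the members crossed from end to end carry the evidence of retention, and the ends of 10 of them are printed here from the mm10 genome with the GENCODE vM21 annotation. Each line gives 3 exon bases and the start of the intron, or the end of the intron and 3 exon bases, 5′ to 3′ on the strand of the gene, and the capitals mark the first and last pair of intron bases.
Ppdpf intron, chr2:181187737-181187808, + strand, 72 bases, 5′ site: ggcGTaagtagcccc
Ppdpf intron, 3′ site: gacccgcctccccttcccAGgac
Wdr83os intron, chr8:85081064-85081172, + strand, 109 bases, 5′ site: gagGTgagcagtcca
Wdr83os intron, 3′ site: gatccttgaacatgtcgcAGgta
Rpl12 intron, chr2:32963584-32963740, + strand, 157 bases, 5′ site: ctgGTaagagcacgc
Rpl12 intron, 3′ site: ggccaccattcttactgtAGgaa
Rpl41 intron, chr10:128548681-128548948, − strand, 268 bases, 5′ site: aagGTgagcggctct
Rpl41 intron, 3′ site: acatgatcgggtttttttAGtgg
Rpl10a intron, chr17:28329048-28329373, + strand, 326 bases, 5′ site: cagGTtggcaccgct
Rpl10a intron, 3′ site: ttctcccctcccaaacgcAGgct
Taf1d intron, chr9:15311696-15311817, + strand, 122 bases, 5′ site: aagGTaaagaacata
Taf1d intron, 3′ site: ttttcgttgcttgatttcAGagt
Oip5 intron, chr2:119617921-119618157, − strand, 237 bases, 5′ site: ccaGTgagtgaggcg
Oip5 intron, 3′ site: aaaaccgttttgtcttccAGaag
Cuta intron, chr17:26939093-26939316, − strand, 224 bases, 5′ site: gggGTgagtctggcc
Cuta intron, 3′ site: cgccctcccccctgctccAGgcc
Rpl3 intron, chr15:80081032-80081614, − strand, 583 bases, 5′ site: ctgGTaagaggctct
Rpl3 intron, 3′ site: actgtgctctgctcctgaAGgca
Cdk4 intron, chr10:127065265-127065952, + strand, 688 bases, 5′ site: gaaGTatgggactag
Cdk4 intron, 3′ site: tgagtctttttctgccttAGgcc

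Matched to the annotation by identifier, 114 of the 115 members had the same coordinates, the exception being Noc2l, which was not matched. Of these, 73 contained at least 1 whole intron of a coding transcript of their gene, and 120 distinct introns were involved. The retained introns were short, with a median length of 305 bases against 675 for the 983 other introns of the same genes and 278 for the 8621 introns held in the same way by all annotated retained intron transcripts. Their median GC content was 52.1%, and 51.3% over those 8621. The GT and AG ends were present in 119 introns (99.2%), and the exception was the U2af2 intron at chr7:5079501-5079583. A small nucleolar or Cajal body RNA on the same strand lay inside 5 of the 120 introns (4.17%), among them the Rpl12 intron at chr2:32963067-32963496 with Snora65. Counted on either strand, such RNAs lay inside 0.545% of the 8621. The members ended within 50 bases of a coding transcript's 3′ end in 70 cases, inside a coding intron in 9, and elsewhere in 35.

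The label was then checked against the reads, and for most members most reads did not carry sequence of the intron. A read that did not reach the intron counts here as not carrying it, so such a read cannot test the label. A read was counted as covering when it overlapped at least 20 bases of the member that lie outside every exon of the gene's coding transcripts. Of 28787 reads on matched members, 5695 covered such bases (19.8%) and 1518 crossed a whole intron with 5 bases on each side (5.27%). The median member had 3.56% of its reads covering, 27 members had none, and 15 had over 90%. In 89 members under 50% of the reads were covering, so that most reads assigned to them lay in sequence shared with the coding transcripts of the gene. The other 25 members had 50% or more, and they are called here members with reads mostly outside coding exons. In 10 of them the member holds no whole intron of a coding transcript, so the bases outside coding exons are part of one or lie elsewhere. That limit of 50% was chosen after the values were seen. Only the start and end of an alignment were given, so bases skipped inside one cannot be seen for any intron, the 72-base Ppdpf intron included.

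**Figure D1:**
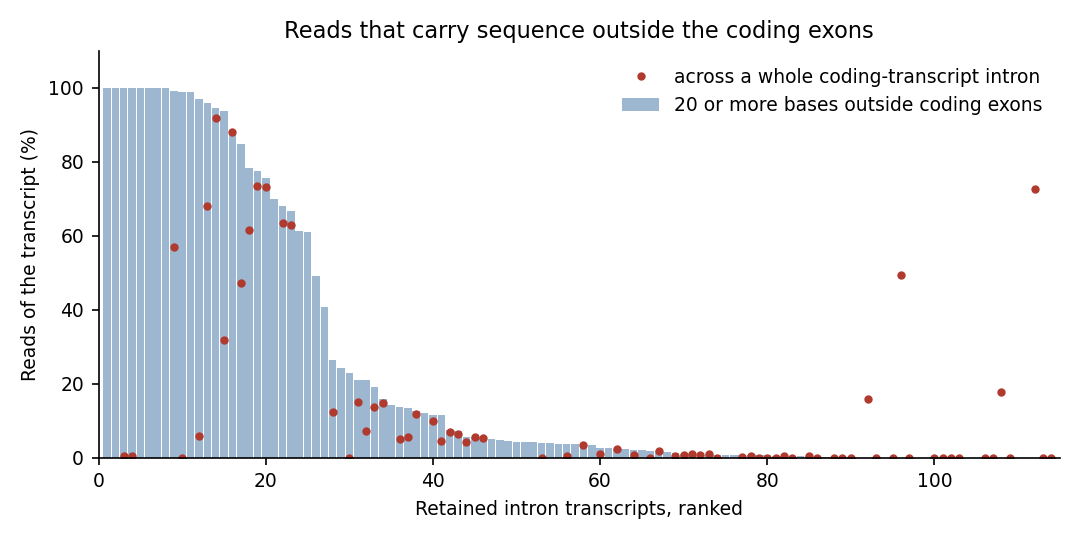
Percentage of each member's reads that covered sequence outside coding exons (bars) and that crossed a whole intron (dots), with the members ranked along the horizontal axis by the first percentage. Most members sit near 0, with 15 above 90%, and a dot far above a low bar (U2af2 72.6%, Cnn3 49.3%) marks an intron that is exonic in another coding transcript of the gene.

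The alignment score moved with this split. A mapping quality of 10 or more was reached by 63.2% of the covering reads and 2.14% of the reads that did not cover, against 70.3% of reads on protein-coding transcripts, 18.8% on nonsense-mediated decay transcripts and 52.8% on processed transcripts. Among the 25 members with reads mostly outside coding exons the median share of reads at that quality was 76.6%, and among the 89 others 1.39%. Reads below it could be placed about as well on another transcript, so levels of the 89 members are uncertain between the member and the coding transcript.

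Intron crossing, as a percentage of all reads of a member, was most frequent in a few genes. In Ppdpf, whose product is named for pancreatic progenitor differentiation, 87.9% of the reads of ENSMUST00000146089.7 crossed the printed intron, and 73.3% of those of ENSMUST00000127971.7. In Wdr83os, which encodes a small membrane protein of the endoplasmic reticulum, 73.2% crossed. In Rpl41, a ribosomal protein gene, 63.4% crossed, and in Rpl12 56.9% for ENSMUST00000134912.6 and 91.8% for ENSMUST00000154340.7. Of the 2 Rpl10a members, 62.9% of the reads of ENSMUST00000150103.2 crossed and 15.0% of those of ENSMUST00000232770.1, where the median alignment did not reach the intron. Taf1d, a subunit of the RNA polymerase I initiation factor, had 61.4%, and Oip5, a centromere protein, had 57.0%. Cuta had 31.9%, Cdk4, the G1 cyclin-dependent kinase, 12.5%, and Rpl3 4.17%. Over all reads, short introns varied widely, with 47.2% of the reads of Plekhj1 crossing one of 70 bases and 1.74% of those of Eif4a1 (ENSMUST00000128519.7) one of 71. A Gapdh intron of 84 bases was crossed by 0% of the reads of ENSMUST00000147954.1 and 10.6% of those of ENSMUST00000192506.1. None of these percentages is limited to reads that reached the intron, so a low one does not show that the intron was removed.

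The 25 members with reads mostly outside coding exons fell into different structures. In 9 the annotated 3′ end lay inside an intron of the coding transcripts (Fam221b, Wiz, Tmed7, Cep295, Borcs8, Pcif1, Ndufa7, Cstf3 and Larp7). Reads reached that annotated end in some of these and not in others, with 99.6% ending within 50 bases of it in Wiz and 99.4% in Borcs8 but 0% in Fam221b and Ndufa7. In Borcs8, Pcif1, Ndufa7 and Cstf3 all reads were covering, and 98.4% to 100% of them reached a mapping quality of 10. In 8 the end was shared with a coding transcript, and here the printed introns of Ppdpf, Wdr83os, Rpl41, Rpl10a and Cuta lay upstream of a common 3′ end. In the other 8 it lay elsewhere, among them Mrpl57, where 79 bases outside coding exons were present in 98.9% of its reads.

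Several members with reads mostly outside coding exons lay in sequence that is not particular to their gene. Fam221b had the most reads of any member (1361), but 98.5% of the 21-base words of its covered stretch at chr4:43663945-43664420 occurred on the opposite strand of transcripts of Serf2, and an antisense processed pseudogene, Gm12481, overlaps it. It had 113, 194 and 146 reads at D0, 27, 69 and 65 at D2, 107, 154 and 125 at D4 and 97, 144 and 120 at D6, and was called at no day. Of all its reads 6.83% reached a mapping quality of 10. Slc15a3 had all such words on the opposite strand of Tmem132a, and 1.20% of its reads reached that quality. For Wiz 84.1% of the words occurred in other genes on the same strand, and its stretch at chr17:32376178-32376404 overlaps long terminal repeats of endogenous retroviruses. For Larp7 86.3% of the words occurred in Gm12666. Over all members, 32 had at least 50% of their words in other genes on the same strand and 14 on the opposite strand, and 11 of the 25 members with reads mostly outside coding exons had under 10% of words elsewhere. Counts for genes with such copies are uncertain, because a read can be placed on either.

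Relative to its own gene, a member was usually the lesser product. The median member took 16.2% of the reads of its gene, 28.0% among the 25 with reads mostly outside coding exons and 12.7% among the 89 others. In 12 members it took over 50%, led by Slc15a3 (100%), Fam221b (99.9%), Oip5 (93.9%) and Tmed7 (92.0%), while 42 members took under 10%. The sequence of Slc15a3 and Fam221b occurs on the opposite strand of other genes, and few of their reads reached a mapping quality of 10. Their shares are therefore uncertain.

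The members' share of all kept reads was highest at D0. The 3 D0 libraries gave 1.05%, 0.728% and 0.790%, and the D2 libraries 0.557%, 0.755% and 0.691%. The D4 libraries gave 0.448%, 0.443% and 0.623%, and the D6 libraries 0.488%, 0.677% and 0.608%. The D0 libraries lay above all D4 and D6 libraries, and D0 and D2 overlapped. The covering reads alone had a share of kept reads that averaged 0.135% ± 0.00417 (SD, n = 3) before induction, 0.115% ± 0.0127 at D2, 0.130% ± 0.00505 at D4 and 0.145% ± 0.0101 at D6. Without Fam221b the D0 libraries (0.102% to 0.112%) lay above all those at D2 (0.0796% to 0.0949%) and D4 (0.0898% to 0.0995%) and overlapped those at D6 (0.0998% to 0.116%). Of the members' own reads they made up 16.2% ± 3.11 before induction and 17.5% ± 2.77, 26.4% ± 4.98 and 25.1% ± 5.46 on the later days. Since the reads were summed over libraries of unequal depth, members high in D0 passed the limit more easily, and 91 of the 115 had their largest day total there.

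**Figure D2:**
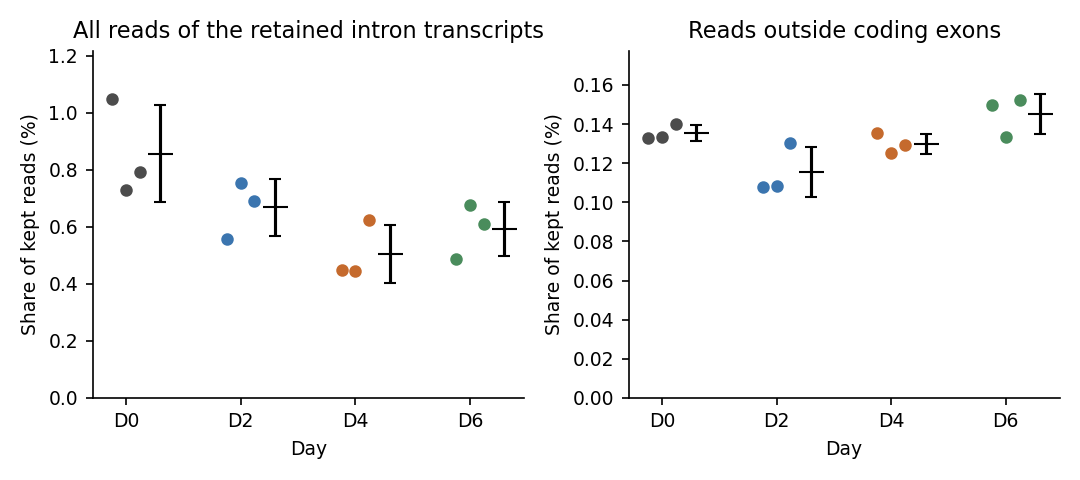
Reads on the members, and their covering reads, as a percentage of kept reads in each library by day (points are libraries, black marks the mean ± SD of 3). The member share falls from 0.856% ± 0.170 at D0 to 0.505% ± 0.102 at D4, and the share of covering reads stays between 0.115% and 0.145% on average.

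To determine how the level of each member changed, limma-voom was fitted to all 12356 transcripts with enough reads, and a change with an adjusted p up to 0.05 was called. At D2, 4 members were called higher and 14 lower than at D0, where 3.42% of all transcripts were called higher and 3.80% lower. At D4 there were 8 higher and 47 lower, against 10.4% and 9.92% of all transcripts, and at D6 7 higher and 47 lower, against 15.0% and 14.6%. The members had a median log2 change of −0.31, −0.61 and −0.46 on the successive days, where all transcripts had −0.02, −0.003 and 0.007. The limit on summed reads favoured members high at D0, since 58 of the 115 would have had under 100 reads without D0 and 64 without the day of their largest total. The excess of falls is therefore a description, and nothing is read from it against the share of all transcripts. In bulk samples fewer cells of a type and less RNA per cell cannot be told apart.

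Most members, 89 of 114, had reads mostly in coding exons, and they are given apart from the 25. Among the 89, 2 were higher and 11 lower at D2, 2 higher and 41 lower at D4 and 5 higher and 39 lower at D6, with medians of −0.31, −0.69 and −0.62. Among the 25, 2 were higher and 3 lower at D2, 6 higher and 6 lower at D4 and 2 higher and 7 lower at D6, with medians of −0.18, 0.03 and −0.12. The difference between these 2 classes was not tested. Other annotation classes with 100 or more reads also had more falls than rises at D6, with 28 lower and 11 higher of 98 nonsense-mediated decay transcripts (median −0.39) and 25 lower and 10 higher of 70 processed transcripts (median −0.16), while 1158 of 5351 protein-coding transcripts were lower and 938 higher (median −0.05). The 391 retained intron transcripts under 100 reads that could be tested did not have this excess at D6, with 30 lower and 42 higher (median −0.07), and had 37 lower and 19 higher at D4 (median −0.41). Where a member fell, the most abundant coding transcript of its gene often fell too. Of the 47 members lower at D6 the coding transcript was called lower in 39, not called in 7 and not tested in 1. At D4 it was called lower for 19 of 47 and not called for 28. Of the 7 members higher at D6 it was called higher in 6.

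Stricter read sets left fewer members to test, so their counts are not counts of the same members. With mapping quality of 10 or more, 32 could be tested. At D4 5 were higher and 6 lower (11.9% of all transcripts in each direction, members' median −0.41). At D6 2 were higher and 8 lower (17.1% and 14.9%, members' median −0.06). With covering reads alone, a fit chosen after the data were seen, 32 could be tested, and 6 were higher and 5 lower at D4 (10.6% and 9.52% of all transcripts) and 4 higher and 7 lower at D6 (15.0% and 14.6%), with medians of −0.29 and −0.09.

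**Figure D3:**
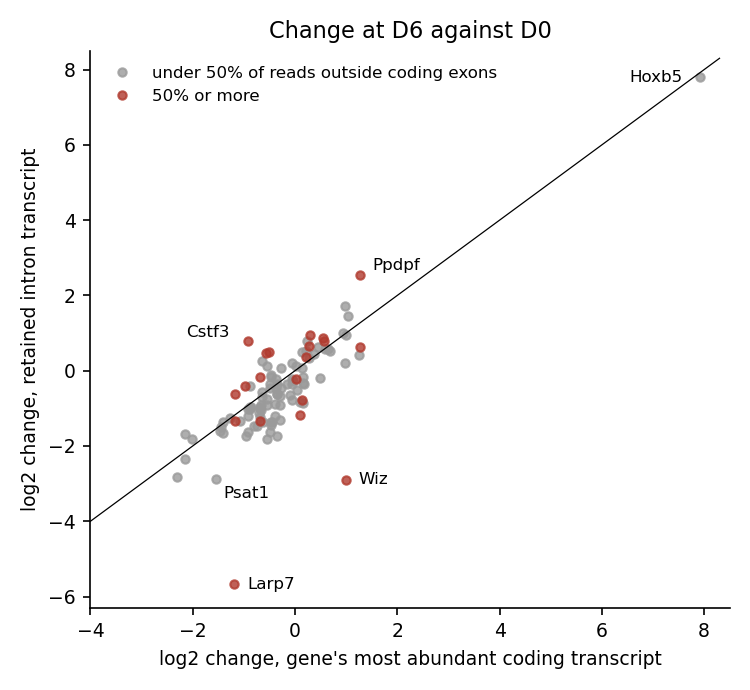
Log2 change at D6 against D0 of each member (vertical axis) against that of the most abundant coding transcript of its gene, with points on the diagonal where both changed equally. Hoxb5 and Ppdpf rose with their coding transcripts, while Wiz and Larp7 lie far below the diagonal; genes whose coding transcript was not tested are absent.

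The limit of 100 reads also bears on single members. Without the day of its largest total, each of Ppdpf, Metrn, Wdr83os, Cstf3, Oip5, Rpl41, Taf1d, Larp7, Wiz, Psat1, Srsf4 and Traf4 had between 0 and 88 reads, so that it passed only through the day where it was highest. Their values against D0 are descriptions and are given without a test, whereas Mrpl57, Hoxb5, Tpi1, Ckb and Gapdh (ENSMUST00000147954.1) had 111 or more.

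Among the members with reads mostly outside coding exons that were higher after D0, Ppdpf had 5, 11 and 0 reads at D0, 2, 10 and 7 at D2, 6, 16 and 18 at D4 and 16, 12 and 17 at D6 (ENSMUST00000127971.7). This was 10.5 ± 10.0 RPM (SD, n = 3) at D0 and 43.1 ± 16.3 at D6. The log2 values on the successive days were 2.38 ± 0.67 (SE), 2.47 ± 0.61 and 2.55 ± 0.60, and they were smaller without D0 replicate 3, the library at 0, with 1.06 at D2 and 1.13 at D4. Metrn, which encodes the secreted protein meteorin of the nervous system, had 4, 5 and 4 reads at D0, 6, 20 and 15 at D2, 11, 23 and 39 at D4 and 3, 12 and 4 at D6. Its log2 values were 2.90 ± 0.45, 2.72 ± 0.43 and 0.78 ± 0.52 in the same order, and covering reads alone gave 1.80 ± 0.67 at D6. Its coding transcript also rose at D2 and D4, by 3.06 and 3.21 on the log2 scale. Its sequence overlaps AC134908.4 on the same strand and Gm26694 on the opposite one.

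Wdr83os had 5, 9 and 13 reads at D0, 3, 4 and 5 at D2, 9, 17 and 19 at D4 and 9, 19 and 11 at D6, with log2 values of 1.20 ± 0.35 at D4 and 0.95 ± 0.36 at D6. Mrpl57, a protein of the mitochondrial ribosome, had 10, 16 and 16 reads at D0, 5, 9 and 10 at D2, 12, 29 and 23 at D4 and 13, 15 and 17 at D6, and rose by 1.01 ± 0.29 at D4 (adjusted p = 0.01, limma). Cstf3, a subunit of the cleavage stimulation factor that acts in 3′ end formation, had 13, 6 and 8 reads at D0, 1, 9 and 7 at D2, 6, 20 and 17 at D4 and 4, 17 and 15 at D6, with a log2 value of 1.14 ± 0.40 at D4. Cstf3 counts among the calls at D4, and was no longer called in 8 of 20 alternatives, among them the replicate block and a mapping quality of 10 or more. The D0 and D4 libraries overlapped for Cstf3 and, scaled for depth, did not overlap for Wdr83os and Mrpl57. Wdr83os passed the limit only through D4, which favours this.

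Among those that were lower after D0, Oip5 had 15, 24 and 15 reads at D0, 1, 6 and 8 at D2, 8, 11 and 10 at D4 and 2, 4 and 3 at D6, from 36.6 ± 6.2 to 8.0 ± 0.7 RPM between D0 and D6 (log2 −2.0 ± 0.48). Rpl41, which encodes one of the smallest ribosomal proteins, had 27, 46 and 29 reads at D0, 6, 2 and 2 at D2, 15, 12 and 6 at D4 and 7, 11 and 12 at D6 (D6 log2 −1.33 ± 0.34). Taf1d had 31, 27 and 14 reads at D0, 7, 11 and 6 at D2, 6, 17 and 12 at D4 and 5, 10 and 7 at D6 (log2 −1.18 ± 0.37). All D6 libraries of these 3 members lay below all D0 libraries on this scale, which is favoured by their having passed the limit only through D0.

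Larp7, a protein that binds the 7SK RNA, had 27, 35 and 40 reads at D0 and 0 in the other 9 libraries. It was at least 13.1-fold lower at D2, 25.4-fold at D4 and 26.0-fold at D6, computed against a floor of 3 reads over the later group, and its coding transcript fell by 1.18 on the log2 scale at D6. Wiz, a zinc finger protein that acts with histone methyltransferases, had 84, 69 and 62 reads at D0, 6, 6 and 9 at D2, 6, 7 and 7 at D4 and 3, 9 and 9 at D6 (D6 log2 −2.91 ± 0.35), while its coding transcript had a log2 change of 1.0 that was not called. For Larp7 and Wiz the D0 libraries stood apart from all others, and both passed the limit on summed reads only through D0.

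**Figure D4:**
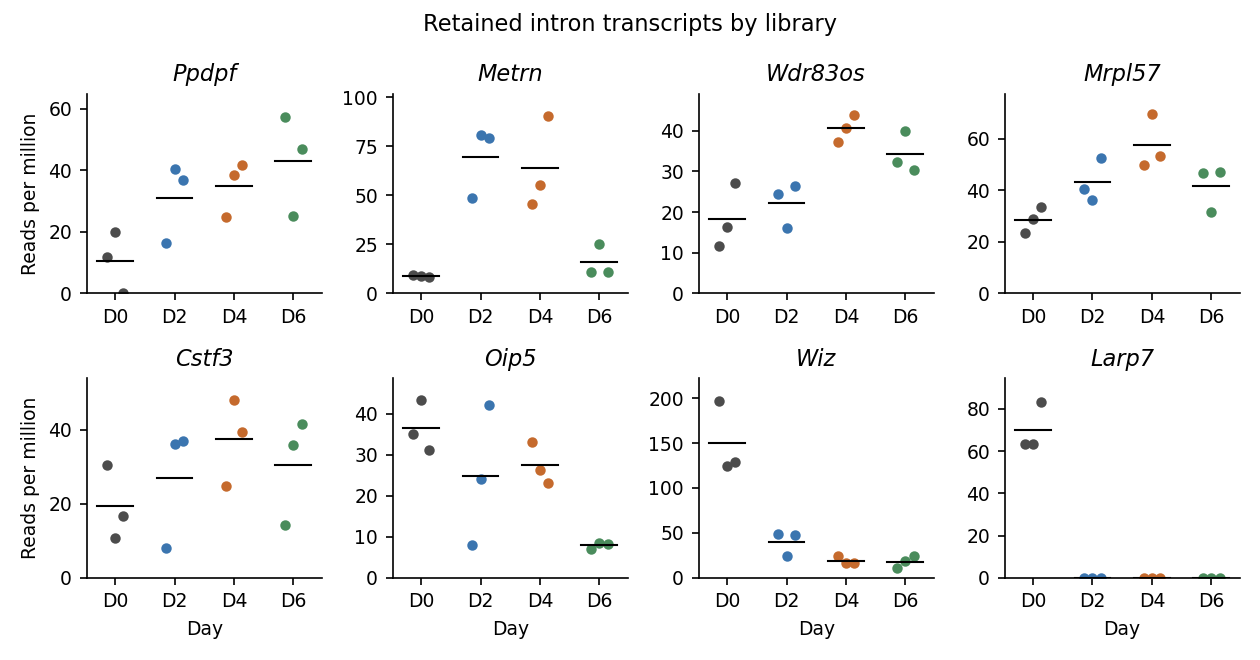
RPM in each library by day for members named in the text (points are libraries, black lines the means of 3 libraries, Ppdpf being ENSMUST00000127971.7). Larp7 is at 0 in all libraries after D0, while all D2 and D4 libraries of Metrn lie above its D0 libraries. Both passed the limit on summed reads only through their highest day.

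Among the other members, Hoxb5, a homeobox gene that retinoic acid induces, had 0 reads in all 3 D0 libraries, 2, 6 and 4 at D2, 14, 40 and 70 at D4 and 54, 131 and 75 at D6. It was at least 10.4-fold higher at D2, 55.3-fold at D4 and 113-fold at D6, against the same floor over the D0 group. Only 0.758% of its reads were covering, and its coding transcript rose by 7.91 on the log2 scale at D6, and the member's change relative to its gene was not called at any day.

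Psat1, an enzyme of serine synthesis, had 36, 41 and 32 reads at D0, 6, 15 and 4 at D2, 6, 18 and 21 at D4 and 2, 4 and 4 at D6 (D6 log2 −2.89 ± 0.46), and its coding transcript fell by 1.55 on the log2 scale. The glycolytic members fell at D6 by 2.82 ± 0.31 in Tpi1 and 2.34 ± 0.23 in Gapdh (ENSMUST00000147954.1) on the log2 scale, near the falls of their coding transcripts of 2.30 and 2.16. Higher log2 values at D6 among these members were 1.71 ± 0.34 in Srsf4, an SR protein (6, 9 and 9 reads at D0 and 17, 24 and 21 at D6), 1.44 ± 0.35 in Traf4 and 1.01 ± 0.27 in Ckb, a brain creatine kinase. Srsf4 has all words of its stretch on the opposite strand of Gm12992. The D6 value of Ckb was 0.76 and no longer called without D6 replicate 2.

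Grouped by the function of the gene, 48 members fell into the lists used. Their counts stand beside 9.92% of all transcripts called lower at D4 and 14.6% at D6, with no test of a list. The limit on summed reads favoured members high at D0 here too. The counts of falls are therefore descriptions, and nothing is read from them against these shares. The largest was ribosomal proteins with 24 members, of which 17 were lower at D4 and 17 at D6 (median −1.03 at D6) and 0 higher, with 9.73% of their reads covering. Rpl23a fell by 1.20 ± 0.16 at D6 and Rpl3 (ENSMUST00000187578.1) by 1.19 ± 0.17. Of 5 members from translation factors, 5 were lower at D4 and 4 at D6, with 0.809% covering, and Eef1g, a subunit of elongation factor 1, fell by 1.73 ± 0.17. All 4 glycolytic members were lower at both days. Of 8 members from RNA processing genes, 1 was higher (Srsf4) and 1 lower (Ptbp1, −0.97 ± 0.27) at D6, with a median of −0.30. The mitochondrial list held Mrpl57 and Ndufa7, with 99.4% of reads covering and 0 called lower. The lists for cytoskeleton and proteostasis held 2 and 3 members, and the chromatin list none.

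Relative to the other reads of the gene on coding transcripts, fewer members were called, as were fewer of all transcripts. Of 108 tested, 0 rose and 1 (Wiz) fell at D2, against 0.0955% of all 6285 transcripts called in each direction, and the call of Wiz was lost in 14 of 17 alternatives. At D4 2 rose and 16 fell, against 1.62% and 2.18%, and at D6 0 rose and 8 fell, against 1.03% and 1.16%. The limit on summed reads favoured members high at D0 here as well, so nothing is read from these counts against the shares. The D6 direction depended on the reads used. With mapping quality of 10 or more, 3 of 26 were higher and 1 lower (5.84% and 5.66% of all transcripts, members' median 0.32), the higher ones being Rpl12 (ENSMUST00000134912.6), Mrpl57 and Cstf3. With covering reads alone 0 of 27 were higher and 2 lower (1.11% and 1.10%, members' median 0.45). The medians were −0.11, −0.58 and −0.19, with 0.03, −0.07 and −0.02 over all transcripts. Nonsense-mediated decay transcripts had a D4 median of −0.54 and processed transcripts −0.64. Reads can be placed on either transcript of a gene, so this ratio is only as sure as that placement. The D4 count of 18 was 6 without D4 replicate 2, 10 without D4 replicate 1, 29 without D4 replicate 3 and 35 without D0 replicate 2, and the D6 count of 8 was 3 without D6 replicate 1 or 3.

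The D4 rises were in Mrpl57 and Cstf3. Mrpl57 went from 28.1% ± 2.67 (SD, n = 3) of its gene's reads at D0 to 48.6% ± 1.18 at D4 and 45.2% ± 1.44 at D6 (D4 log2 1.24 ± 0.32, limma adjusted p = 0.0173), with 25.0%, 29.6% and 29.6% at D0 and 48.0%, 50% and 47.9% at D4. This call was lost without D0 replicate 1 or D4 replicate 2, with a replicate block (limma adjusted p = 0.0871) and without weights (adjusted p = 0.322). Cstf3 went from 25.3% ± 10.5 to 51.6% ± 18.1 (1.89 ± 0.47), and its libraries overlapped. It is described without a test for the reason given above, and its call was lost in 4 of 19 alternatives, the block included. Wiz, likewise without a test, went from 72.7% ± 3.01 at D0 to 22.9% ± 10.8 at D4 and 16.4% ± 6.97 at D6 (D6 log2 −3.77 ± 0.52). Ppia, which encodes cyclophilin A, fell from 5.03% ± 1.12 to 1.79% ± 0.586 at D4 and 2.08% ± 0.581 at D6 (D6 −1.26 ± 0.21, limma adjusted p = 0.000245). Tcp1, a chaperonin subunit, fell from 20.7% ± 0.998 to 9.17% ± 2.91 at D4 and 11.4% ± 3.00 at D6, while Rps18 (ENSMUST00000174758.7), with 76 reads outside D0, went from 1.87% ± 0.105 to 0.447% ± 0.0295 at D4. Ribosomal proteins gave 6 of the D4 falls and translation factors 4.

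Tail length was not used to choose the members, and was compared within each library with the coding reads of the same gene. For 108 members with at least 30 coding reads the member's median tail was longer in 73 and shorter in 35, with a median difference of 3.83 nucleotides. In the limma fit of mean log2 tail, 61 members could be tested, and 6 were longer and 2 shorter over the 12 libraries, against 4.11% and 4.03% of all 1216 transcripts tested. The median log2 difference was 0.03 (0.002 over all transcripts). By limma 0 members were called for a change of this difference from D0 at D2, D4 or D6, where 0% of all transcripts were called, and at an unadjusted p of 0.05 or less there were 2 members at D2 (3.28% of those tested), 1 at D4 (1.64%) and 6 at D6 (9.84%), beside 4.52%, 7.65% and 7.24% of all transcripts. With mapping quality of 10 or more only 5 members could be tested and 0 were called, and without D2 replicate 2 or 3 the calls over the 12 libraries fell from 8 to 4 and 5.

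Among the called members the largest log2 difference was that of Cdk4, with a median of 130 nucleotides against 108 on its coding transcripts, longer in 9 of 12 libraries (log2 0.36 ± 0.06, limma adjusted p = 5.36e-06). Rpl10a (ENSMUST00000232770.1) followed with 97.4 against 83.3 (0.30 ± 0.08, adjusted p = 0.00437 by limma), then Map1lc3b, an autophagy protein, with 126 against 109 (0.28 ± 0.09, adjusted p = 0.0283 by limma). Pafah1b1, a regulator of dynein, had 137 against 115 and was longer in all 12 libraries (0.27 ± 0.08, limma adjusted p = 0.0145). Rpl14 had 112 against 92.9 on ENSMUST00000213310.1 and 83.1 against 92.9 on ENSMUST00000215063.1, longer in 12 and in 3 libraries. In all of these members under 50% of the reads were covering, and both signs occurred among them. Some calls were not kept when single libraries were left out. Those of Rpl10a and Rpl14 (ENSMUST00000215063.1) were lost without D2 replicate 2, that of Pafah1b1 without D2 replicate 3, and that of Map1lc3b without any of several libraries.

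**Figure D5:**
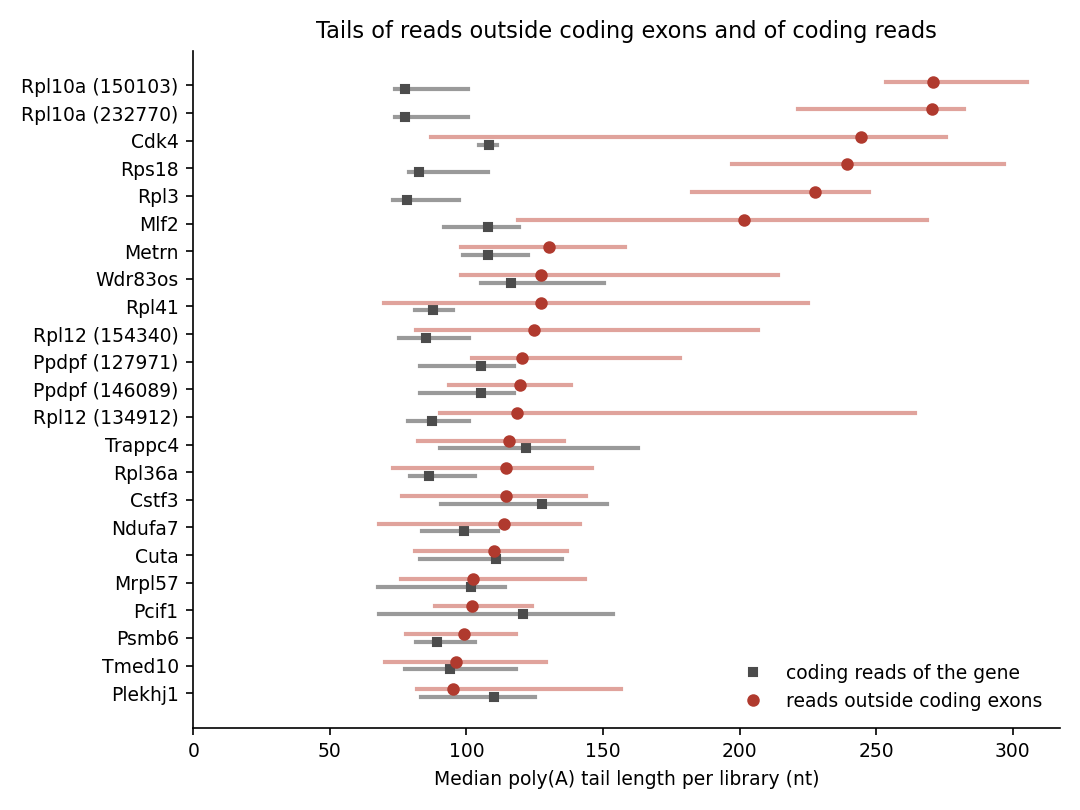
Median poly(A) tail length per library, in nucleotides, of covering reads (circles) and of coding reads of the same gene (squares), with marks at the median over libraries, bars from the lowest to the highest library, and the last 6 digits of the transcript identifier in parentheses where a gene has more than 1 member. The bars of both Rpl10a members, Rps18 and Rpl3 lie wholly above those of their coding reads, and those of Cuta and Mrpl57 overlap them.

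Split by covering reads, a comparison chosen after the data were seen and given without a test, the difference was larger. In 46 members with at least 10 covering and 10 coding reads, the covering reads had the longer median tail in 37 and the shorter in 9, at 128 against 101 nucleotides (median difference 28.0). Of the 29 with 30 or more covering reads, 21 had the longer tail, 14 differed by at most 20 nucleotides, 14 were longer by more than that and 1 was shorter by more. Over all reads of the 20 members with reads mostly outside coding exons that could be compared, the median difference was 7.84 nucleotides, with 15 longer. Without Fam221b, the median difference was above 0 in all 12 libraries, from 2.44 to 47.7 nucleotides over 14 to 39 members each. Within 34 members that had both kinds, covering reads had the longer tail in 29, at 155 against 98.0 nucleotides. By day, the median tail of all covering reads of a library pooled, Fam221b included, was 120 ± 1.48 nucleotides (SD, n = 3) before induction, 114 ± 5.86 at D2, 121 ± 0.822 at D4 and 129 ± 0.602 at D6. That of coding reads of the same genes was 98.2 ± 3.23 before induction and 89.1 ± 0.808, 86.1 ± 1.12 and 85.8 ± 0.764 on the later days. These pools weight the genes differently, so the gap between them is not a difference within genes. Within members, without Fam221b, the median difference was 33.2, 22.3 and 13.3 nucleotides in the D0 libraries and 11.5, 18.9 and 47.7 at D6. The covering reads were also longer in alignment in 34 of 34 members (948 against 438 bases). The definition favours this where a read must extend further to reach bases outside coding exons. The tail contrast with the members' other reads is therefore also one of longer against shorter alignments.

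The tails of covering reads differed widely between members, also within ribosomal protein genes. In Rpl10a (ENSMUST00000150103.2, 9 libraries with enough reads) covering reads ran from 253 to 305 nucleotides against 73.7 to 101 for coding reads, longer in 9 of 9, with no overlap. In Rpl3 they ran from 183 to 247 against 73.3 to 97.4, again in 9 of 9. In Rps18 (ENSMUST00000174620.2) they ran from 197 to 297 against 78.9 to 108 in 5 of 5. Cdk4 had a median of 245 over its libraries but a range from 86.9 to 275, longer in 7 of 8. Pooled over libraries, Srsf3, an SR protein, had 282 against 109 (28 reads) in ENSMUST00000150157.2, Pcna, the DNA clamp, 277 against 107 (18 reads), Ptov1 274 against 97.8 (15 reads), Arglu1 274 against 118 (25 reads), Eif4a1 244 against 103 (13 reads, ENSMUST00000128519.7) and Ckb 222 against 109 (17 reads). Others lay closer to their coding reads. Rpl41 had 128 against 89.3, Rps26 108 against 102 and Rpl23a 99.4 against 83.7. Ppdpf had 119 against 100, Wdr83os 129 against 119, Metrn 133 against 108 and Cuta 106 against 108. In Cep295 the covering reads had the shorter tail, at 48.1 (165 reads) against 147 (28 reads). The covering reads of Taf1d had 111 against 78.7. Those of the Rpl12 members had 122 and 123 against 90.04, longer in 11 of 11 and 10 of 10 libraries. Not all of these covering reads crossed the introns printed above.

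The machinery that removes introns or acts on the RNAs that keep them was measured from its own transcripts at D6, where 15.0% of all transcripts were called higher and 14.6% lower. Of 18 SR protein transcripts tested 5 rose and 1 fell (median 0.40), with Srsf5 at 1.11 ± 0.28 and Srsf9 at −1.27 ± 0.21. Of 32 hnRNP transcripts 7 rose and 2 fell (median 0.05), with Hnrnpdl at 1.27 ± 0.22. Of 36 core spliceosome transcripts 1 rose and 8 fell (median −0.28), with Snrpn, a component of small nuclear ribonucleoproteins, at −1.44 ± 0.13. Of 10 neuronal splicing factors tested 6 rose and 0 fell (median 1.58), with Elavl3 at 4.33 ± 0.46. Nuclear decay and tail factors had 4 falls of 18, among them the exosome subunit Exosc2 at −1.45 ± 0.31, and export factors 2 of 15. Nonsense-mediated decay and exon junction factors had 2 falls of 15, in Magohb (−0.99 ± 0.31) and Eif4a3 (−0.55 ± 0.13). The counts for export and for decay and junction factors are near the share of all transcripts and are no result about them. These are levels of whole transcripts in the same libraries, and their part in the members' values was not tested.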

How the data were processed

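Base calling (Guppy), alignment to the mouse transcriptome of mm10 (minimap2 2.20), tail calling (Nanopolish) and demultiplexing (Deeplexicon) were done by the authors. The deposited per-read table gives a mapping quality (a score), a barcode confidence (a fraction) and a tail length in nucleotides, none normalized. The deposited second table holds the authors' log2 fold changes, and p-values from DESeq2, which were not used. Of 6306434 lines, 69 were malformed and 289260 had no assigned barcode. The 4673531 lines with the tag PASS gave 4274320 nuclear mRNA reads, 120326 to 613756 per library, so a count of 0 is limited by these depths.

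Reads were tallied per transcript and library here with Python 3.11.15, pandas 2.3.3, numpy 2.4.6 and scipy 1.17.1. Positions, coding exons and introns came from GENCODE vM21. edgeR, planned for abundance, was not used, since the deposited table has no column of counts, and voom was fitted to these tallies. With R 4.3.3, limma 3.58.1 fits covered all transcripts and all 12 libraries, by voom with TMM factors (30 reads or more over the 12 libraries) for abundance, on the log2 ratio to the gene's other coding reads (0.5 added) and on mean log2 tails (3 reads per side and library). Adjusted p-values are by Benjamini-Hochberg over all transcripts tested, called at 0.05. Scripts were tested on simulated data. Members, gene lists and named genes (the 10 members with most reads and up to 5 per direction with the largest change past the threshold) were chosen with earlier results of these data known. Further genes, the split at 50% covering reads and the fits on covering reads were chosen after their values were seen. Alternatives were other normalizations, filters and weights, a mapping quality of 10 or more, a replicate block and leaving out each replicate. Some items are not reported here.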

Additional observations from a re-analysis of the deposited data

How the results depend on the processing

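Of 21 named results that did not rest on the day of a member's largest total, 10 kept their call under every alternative, 11 lost it under at least 1 and 0 reversed. Restricting reads to a mapping quality of 10 or more left 32 members to test and lowered the members called from 18, 55 and 54 (D2, D4, D6) to 4, 11 and 10. Restricting them to covering reads, added after the data were seen, gave 5, 11 and 11. Both restrictions test fewer members. For reads relative to the gene (main counts 1, 18 and 8), the mapping quality restriction gave 0, 4 and 4 (at D6 3 higher and 1 lower, median 0.32 against −0.19), covering reads gave 5 at D4 and 2 at D6 (both lower, median 0.45), a fit without weights gave 2 at D4 and 2 at D6, and at D2 a minimum of 100 reads and 1 line per read name each gave 0. For the mean tail difference (8 members), no weights gave 3, a minimum of 5 reads 4, and the mapping quality or covering restriction 0. The median of log2 tails gave 1 member at D6 in place of 0. The cause was not tested.

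Leaving out 1 library gave, for abundance, 8 to 18 members on D2 (8 without D2 replicate 2, 11 without D2 replicate 3), 35 to 55 on D4 (35 without D4 replicate 2) and 46 to 55 on D6. For relative reads it gave 0 to 1 at D2, 6 to 35 at D4 (6 without D4 replicate 2, 10 without D4 replicate 1, 35 without D0 replicate 2, 29 without D4 replicate 3) and 3 to 10 at D6 (3 without D6 replicate 1 or 3). For tails it gave 0 at each day and 4 to 10 for the mean (4 without D2 replicate 2, 5 without D2 replicate 3). The relative fall of Wiz at D2 was lost in 14 of 17 alternatives, and the rise of Cstf3 at D4 in 8 of 20 for abundance and 4 of 19 for relative reads.

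Replicate numbers did not pair the samples: 18 same-numbered pairs had correlations from −0.312 to 0.346 (median 0.0217, 5 over 0.1). With a replicate block, abundance gave 17, 45 and 51 members, relative reads 0 at D2, 10 at D4 and 7 at D6, and mean tails 8.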
